A study of Mus musculus with 18 samples.

Results

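The positions described here are 318 cytosines of mouse RNA that were listed as carrying 5-methylcytosine (m5C) in wild type embryonic stem cells, were absent from the Tet2 KO list, and had a mean level of at least 0.2 and under 0.4 over the 2 wild type replicates. They were found by matching both lists on chromosome, position and strand, and are 318 of 4128 positions listed in wild type and of 7870 listed in either genotype. A level is the fraction of reads with an unconverted cytosine at the position. Each list starts at 0.1 in both replicates, so absence from the Tet2 KO list is not a measured level of 0. The lists give no coverage, and a position not listed may have been under 0.1 in a replicate or too thinly covered. The positions were chosen by these wild type levels and by the absence, so both are given as descriptions with no test.

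The series compared wild type mouse embryonic stem cells with cells labelled Tet2 KO, both grown with LIF on a layer of mouse embryonic fibroblast feeder cells. RNA bisulfite sequencing was done on 2 wild type and 2 Tet2 KO samples without actinomycin D, and RNA sequencing after 0, 3 and 6 h with 5 µg/ml actinomycin D, which stops RNA polymerases from elongating, with 1 library for each genotype and time. How Tet2 was disrupted is not given in the sources used here, nor whether a line was 1 clone, nor whether replicates came from separate cultures. With 1 RNA library for each genotype and time, p-values rest on how these libraries depart from the fitted genotype and time effects. Such departures mix spread between libraries, which may be technical, with any change that the fit does not follow. RNA of the feeder cells could be in every sample, and fewer cells of a type and less RNA per cell cannot be told apart.

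In mRNA, m5C is written mainly by NSUN2, with NSUN6 acting at its own motif, and is bound by ALYREF, which takes part in export, and by YBX1, which takes part in mRNA stability. TET2 is a dioxygenase that oxidises 5-methylcytosine in DNA and can do so in RNA. In bisulfite sequencing an unmethylated cytosine is deaminated and read as T, and any cytosine that escapes conversion is counted as m5C.

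Sequence around a position could be read where it lay in a RefSeq window of 300 bases at a gene start (GRCm38.p6, 250 bases before to 50 after the start), of a gene on either strand. This held for 13 of the 318 positions, and the base on the listed strand was C at each of the 13. It was also C at each of the 131 other listed positions in such windows. The following 8 show what stands around positions near gene starts, each under the gene that holds it. Those of 2300009A05Rik, Brd1, Nop9 and Rnf19b lay in the window of a gene on the other strand, and the other 4 stood 15 to 28 bases after the start that the window gives for their own gene. For Maz that start differs from the one of the gene table, from which the position stood 729 bases. Each is the RNA strand from 5′ to 3′ with T for U, and the capital is the listed cytosine.
Agap3 (chr5:24452178-24452206, plus strand): cccgcttcggggccCgcgcctccggagcc
2300009A05Rik (chr9:63399145-63399173, minus strand): tgccggccctgggcCtcgggcgccgcctc
Maz (chr7:127026445-127026473, minus strand): gcccgtgcccccggCtcccgctgagctcc
Brd1 (chr15:88734028-88734056, minus strand): ggagcccggcggggCacggctgcgcggcc
Ube2r2 (chr4:41136035-41136063, plus strand): tggggccgcggcccCgcacggccgccgcc
Nop9 (chr14:55745835-55745863, plus strand): ggggacgcgcggccCggggttcgggacgt
Rnf19b (chr4:129058337-129058365, plus strand): aagtgccgcagcggCggccggcgccggcg
Ei24 (chr9:36797292-36797320, minus strand): cccggctctccgagCgcccgggcggagcg

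Of these 8, the position in 2300009A05Rik was the highest, with 0.333 and 0.308 in wild type replicates 1 and 2, followed by that in Agap3, with 0.3 and 0.25. The position in Maz, a zinc finger transcription factor, was at 0.304 and 0.164, and that in Brd1, a bromodomain scaffold of histone acetyltransferases, at 0.267 and 0.188. Those in Ube2r2, Nop9, Rnf19b and Ei24 were between 0.25 and 0.286 in replicate 1 and between 0.118 and 0.167 in replicate 2.

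All 8 stretches are rich in G and C. Over the 11 of the 13 positions that had 10 bases on each side, 87.3% of the 20 flanking bases were G or C, against 78.8% at 119 other listed positions in such windows. The windows themselves held 78.1% and 70.7% G or C. The listed cytosine was followed by G at 7 of 11 positions (63.6%) and at 67 of 124 others (54.0%), while 34.3% of all cytosines on that strand of the 13 windows were followed by G. The share over the windows of the others was 33.8%, and over both strands of all windows 15.4%. The letters CNGGG, with the listed cytosine first, resemble the G-rich context known for NSUN2 sites and were present at 2 of the 11 positions and 12 of the 124 others. Over all 32851 windows, 2.94% of cytosines on either strand began that motif and 92.3% of windows held it on some strand. All windows together held 53.8% G or C, less than those of the listed positions. The motif was not counted in windows of like composition, so these shares cannot show whether it is more frequent at listed cytosines. CTCCA, the motif known for NSUN6, was at 0 of the 11 and 0 of the 124, and began at 0.674% of cytosines. 65.0% of windows held it. These are descriptions of few positions at gene starts, and how far flanking base composition moves with a level was not tested.

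The 318 mean levels ran from 0.2 to 0.399. They were crowded at the low end, with 206 under 0.25, 61 from 0.25 to under 0.3 and 51 at 0.3 or more. Just inside the lower bound, 22 positions had a mean of 0.2, among them those in Hus1 and Wdr81 with 0.2 in each replicate. Just outside it, positions in Dcaf8 (0.258 and 0.141) and Plod3 (0.195 and 0.204) had a mean of 0.1995. Between 0.19 and 0.2 there were 69 positions listed in wild type only, against 80 members from 0.2 to under 0.21, so the bound cuts through a continuous range. At the upper bound, the position in Cnbp (0.438 and 0.36) was just inside, and those in Mettl6 (0.6 and 0.2) and Lmna (0.455 and 0.385) were just outside.

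Several of the highest positions were close in both replicates. Cnbp, a zinc finger protein that binds nucleic acids, held the highest one, at chr6:87850651 on the minus strand, 455 bases into the gene. Rplp0, the protein of the ribosomal stalk base, held one at chr5:115562538 with 0.412 and 0.359. Prkar2a, a regulatory subunit of protein kinase A, held a pair 6 nt apart on chromosome 9, at 108692286 with 0.4 and 0.333 and at 108692292 with 0.4 and 0.37. Ing1, a reader of histone methylation, held one at chr8:11556725 with 0.385 and 0.36. In these genes the replicates differed by at most 0.078.

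Other high positions rested on 1 replicate. Aftph, a protein of clathrin transport, was at 0.583 and 0.182 at chr11:20741352, the widest difference of the 318. Relch, a protein of cholesterol transport from recycling endosomes, was at 0.538 and 0.182. Yipf1, a membrane protein of the Golgi, went the other way, with 0.235 in replicate 1 and 0.545 in replicate 2. Ptprn, a protein of secretory granules, was at 0.45 and 0.105, and Phc1, a subunit of Polycomb repressive complex 1, at 0.429 and 0.111. In Aftph, Relch, Ptprn and Phc1 the lower replicate was under 0.2 and the higher one over 0.4, while in Yipf1 the lower value was itself over 0.2.

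**Figure D1:**
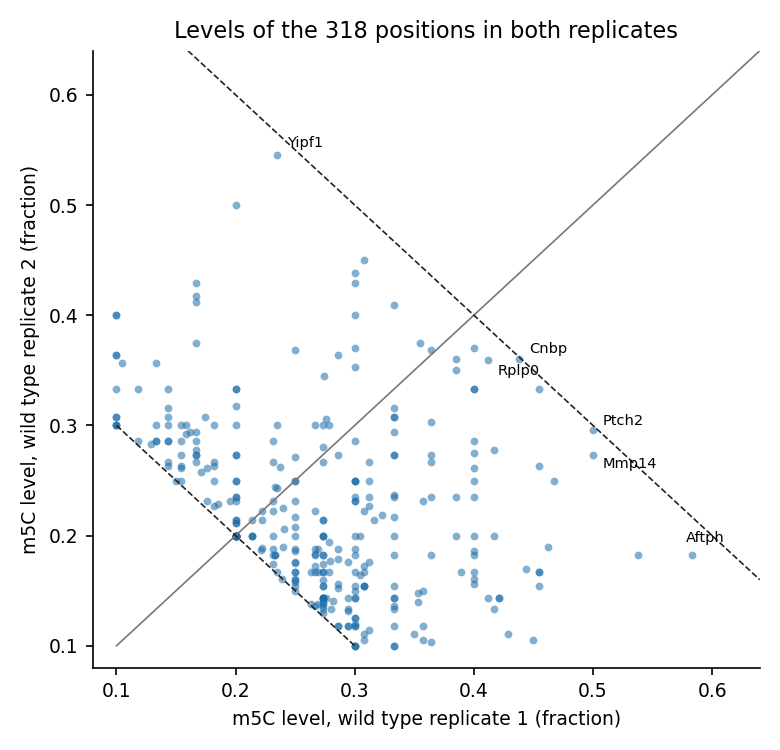
The m5C level (fraction) of each of the 318 positions in wild type replicate 1 (x axis) and replicate 2 (y axis). The solid line marks equal levels and the dashed lines mark means of 0.2 and 0.4, between which the rule keeps positions. More points lie under the solid line, where replicate 1 is higher (202), than over it (98).

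In replicate 1 the levels ran from 0.1 to 0.583 with a median of 0.273, and in replicate 2 from 0.1 to 0.545 with a median of 0.211. Replicate 1 was higher at 202 positions (63.5%), replicate 2 at 98 (30.8%), and 18 were equal. The median difference was 0.063 (SD 0.136 over positions), and the replicates were more than 0.1 apart at 172 positions and within 0.05 at 74. Both replicates reached 0.2 at 132 positions (41.5%), and the lower one was under 0.15 at 81. Positions are not replicates of a sample, so no test was made. Over all 4128 positions listed in wild type, replicate 1 was higher at 48.4% and replicate 2 at 42.3%.

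In the same window of levels, positions that were also listed in Tet2 KO were closer between replicates, though their mean levels were also higher, with a median of 0.258 against 0.231 for the 318. Of the 426 listed in both genotypes with a wild type mean of 0.2 to under 0.4, 290 (68.1%) reached 0.2 in both wild type replicates, with a median difference of 0.01 (SD 0.118). The 516 positions listed in Tet2 KO only, with Tet2 KO means in that range, resembled the wild type only positions in this respect, with 227 (44.0%) at 0.2 or more in both replicates and a median difference of 0.036 (SD 0.142). The part of the mean level, or of coverage, which is not given, was not tested.

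The window can also be set on 1 replicate and the other read, with the limit that every listed position had at least 0.1 in both and that the median over each whole list was 0.15 or less, so a lower value in the other replicate is in part set by the choice. When replicate 1 alone had to lie from 0.2 to under 0.4, 498 positions listed in wild type only were chosen, with a median of 0.231, and replicate 2 had a median of 0.143 at them and lay in the same range at 107 (21.5%). When replicate 2 chose 350 positions, replicate 1 had a median of 0.162 and lay in the range at 107 (30.6%). Among positions listed in both genotypes the unused replicate stayed in the range at 237 of 428 (55.4%) and 237 of 393 (60.3%). Among those listed in Tet2 KO only it did so at 187 of 682 (27.4%) and 187 of 548 (34.1%).

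The share of wild type positions absent from the Tet2 KO list fell with level. It was 84.5% of 3238 positions under 0.2 (95% exact binomial interval over positions 83.2 to 85.8), 53.4% of 386 from 0.2 to under 0.25 (48.3 to 58.4), 35.5% of 172 from 0.25 to under 0.3 (28.3 to 43.1) and 27.4% of 186 from 0.3 to under 0.4 (21.1 to 34.4). Over the whole range of 0.2 to under 0.4, 318 of 744 (42.7%) were absent. The reverse count had the same shape, with 516 of 920 Tet2 KO positions of that range (56.1%) absent from the wild type list. Intervals cover counting of positions only, which are not replicates, leave out variation between libraries, and are no test.

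**Figure D2:**
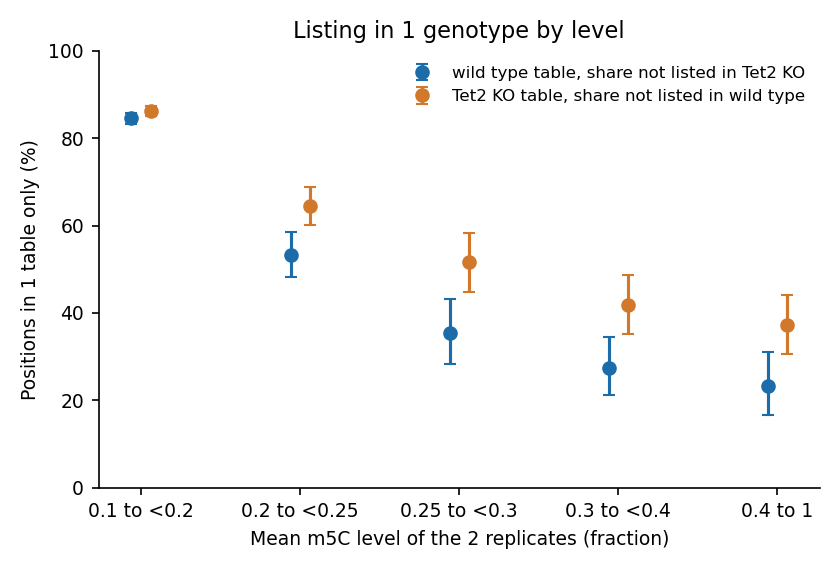
Share of listed positions found in 1 genotype's table only (y axis, %) by mean m5C level (x axis, fraction), for the wild type table (blue) and the Tet2 KO table (orange). Bars are 95% exact binomial intervals over positions, which cover counting only and not variation between libraries. Both shares fall with level, from 84.5% to 23.3% for wild type and from 86.3% to 37.2% for Tet2 KO.

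Placed on the RefSeq genes of GRCm38.p6, 312 of the 318 positions lay in 297 genes, 303 of them in protein-coding genes, 4 in lncRNA genes, 3 in pseudogenes and 2 in Rpph1, the RNA subunit of RNase P. Exons, introns and UTRs were not analysed here, because the gene table gives spans only. Where the gene's strand was known, the listed strand was that of the gene at 252 positions, 1 position lay only over a gene of the opposite strand, 5 lay in no gene, and the strand of the gene was not known for the other 60. Most genes, 283, held 1 of the positions, 13 held 2, and Col4a2 held 3. Pseudogenes, which can share reads with their parent genes, held 0.943% of the 318 positions, 3.76% of the positions from 0.2 to under 0.4 listed in both genotypes and 6.98% of those listed in Tet2 KO only.

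The positions stood mainly at the ends of genes. With each gene's genomic span cut into 10 equal stretches, 56 of the 252 (22.2%) lay in the first and 74 (29.4%) in the last, while each of the 6 stretches after the first held between 2.78% and 5.95%. At the start of genes were those in Kat8, a histone acetyltransferase, 137 bases in (0.444 and 0.17), Ube2r2, a ubiquitin-conjugating enzyme, 28 bases in (0.273 and 0.167), and Brd7, a bromodomain protein, 220 bases in (0.278 and 0.3). At the 3′ end were those in Pkm, the glycolytic pyruvate kinase, 3 bases from the annotated end (0.355 and 0.375), Phc1, 65 bases from it, and Med10, a Mediator subunit, 158 bases from it (0.455 and 0.167). The other lists had like shares, with 21.9% and 31.3% in the first and last stretch for positions listed in both genotypes and 23.8% and 30.8% for those listed in Tet2 KO only.

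**Figure D3:**
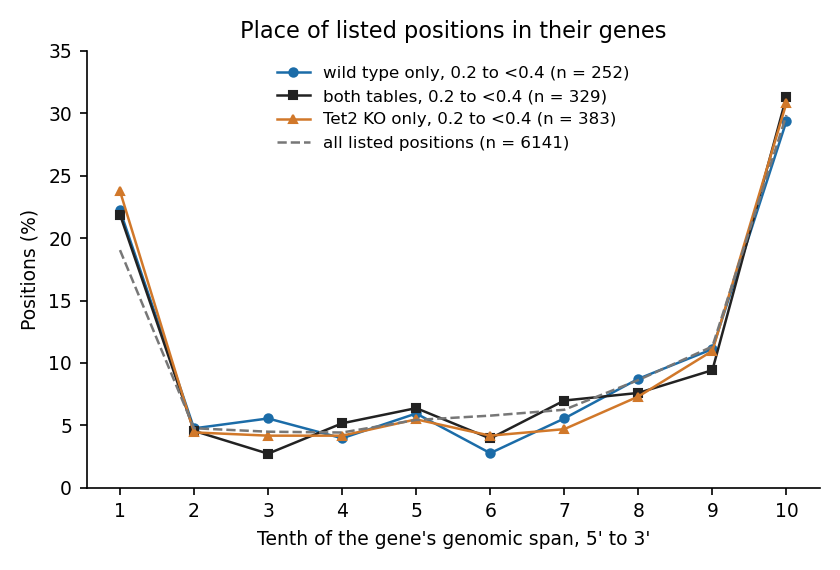
Share of positions (y axis, %) in each of 10 equal stretches of the genomic span of their gene (x axis, 5′ to 3′), for positions on the strand of a gene of known strand. Lines stand for the 252 wild type only positions, the positions from 0.2 to under 0.4 listed in both genotypes and in Tet2 KO only, and all 6141 listed positions so placed. In all 4 the first and last stretches hold the most, with 22.2% and 29.4% for the wild type only positions.

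Positions of the Tet2 KO list stood in many of the same genes and seldom within a few bases. The gene held at least 1 other position of the Tet2 KO list for 151 of the 312 positions (48.4%), and for 58 a position listed in both genotypes. For the Tet2 KO only positions the mirrored share was 231 of 513 (45.0%). Within 10 nt on the same strand, 11 of the 318 (3.46%) had a position listed in Tet2 KO, against 2.97% of all listed positions. In Rnf25, a ubiquitin ligase, the wild type position at chr1:74593997 (0.233 and 0.182) stood 1 nt from a Tet2 KO position at 74593996 (0.158 and 0.182). In Mlec, a lectin of the endoplasmic reticulum, they were 2 nt apart, with 0.267 and 0.183 in wild type, and 0.188 and 0.189 at the Tet2 KO neighbour. In Foxk2, a forkhead transcription factor, they were 3 nt apart, with 0.4 and 0.167 in wild type, and 0.114 and 0.164 at the Tet2 KO neighbour.

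In 6 of the 11 the neighbour was listed in both genotypes. At Ing1 the position 6 nt away was at 0.231 and 0.2 in wild type and at 0.391 and 0.261 in Tet2 KO. At Ei24, an endoplasmic reticulum protein that p53 induces, the position 8 nt away was at 0.308 and 0.188 in the wild type replicates and at 0.318 and 0.296 in the others. In Camkk2, Smurf1, Taf10 and Tcf25 the shared neighbour stood 6 to 10 nt away. Why the wild type only positions were not listed in Tet2 KO was not tested, since coverage is not given. Besides Prkar2a, member pairs within 10 nt stood in Sun2, a nuclear envelope protein, 7 nt apart (0.333 and 0.235, and 0.333 and 0.273), and in Nfkb2, an NF-κB subunit, 6 nt apart (0.2 and 0.3, and 0.364 and 0.182).

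By gene group, the chromatin enzyme and remodeller list held 8 of the positions (2.52% of the 318), where it held 1.67% of all wild type positions and 3.29% of the 516 listed in Tet2 KO only. Arid3a, a DNA-binding protein, was the highest of these with 0.4 and 0.333, followed by Kat8, Brd7 and Kdm1a, a histone demethylase (0.304 and 0.2). The membrane traffic list held 6 (1.89%, against 1.31% of all wild type positions). The translation list held 5 (1.57%, against 1.31%), among them Eif2d, an initiation factor (0.4 and 0.286), the tRNA synthetase genes Tars (0.412 and 0.143) and Iars (0.25 and 0.231), Eef1a1, the elongation factor (0.235 and 0.3), and the pseudogene Eif5al3-ps. The solute carrier list and the proteasome and ubiquitin list also held 5 each, beside 1.60% and 1.16% of all wild type positions, with Slc25a33 at 0.333 and 0.2 and the deubiquitinase Usp1 at 0.4 and 0.186. Imprinted genes held 3 (0.943%, against 0.242% of all wild type positions), of the 10 wild type positions that list has. They held 0 of the positions from 0.2 to under 0.4 listed in both genotypes and 1 of those listed in Tet2 KO only. Among the 3 were Igf2r, a receptor that clears IGF2, at 0.417 and 0.133 and the lncRNA Meg3 at 0.312 and 0.227.

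Cytoplasmic ribosomal protein genes held 3 of the 318 (0.943%, against 0.993% of all wild type positions), among them those in Rplp0 and Rps24 (0.274 and 0.345). They held 11 of the 426 positions from 0.2 to under 0.4 listed in both genotypes and 7 of the 516 listed in Tet2 KO only. Genes of ribosomal proteins and Eef1a1 have many processed pseudogenes, so where such reads belong is uncertain. Splicing proteins held 1 (0.314%, against 1.02% of all wild type positions), in Srsf10 (0.267 and 0.3), and 8 and 5 in those other groups. Chaperones held 0, against 9 and 5, and pluripotency genes 0, against 1 and 4. Of all wild type positions, these lists held 0.654% and 0.436%. Rpph1 held 2, at 0.233 and 0.244 and at 0.25 and 0.271, 44 nt apart. These counts are too small to set the lists apart, and no test was made.

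RNA was given as RPKM, reads scaled to gene length and library size, and tested with limma across all loci at an adjusted p under 0.05. The 10 of 13 stem cell markers that matched a locus summed to between 890 and 1233 RPKM in the wild type libraries and between 1076 and 1204 in the Tet2 KO libraries, and none was at 0. Among them Zfp42, a zinc finger protein of the undifferentiated state, was called lower in Tet2 KO, with 120, 52.5 and 24.7 RPKM in the wild type libraries and 30.6, 10.8 and 6.79 in the others (log2 difference -1.95, SE 0.18, limma adjusted p = 0.0434), a call lost without any 1 of the 6 libraries, where its difference was between -2.06 and -1.83. Over the 10 stem cell markers the median log2 difference was 0.14, on the higher side in Tet2 KO, and Zfp42 alone was called. The 13 of 18 fibroblast markers that matched summed to between 175 and 256 RPKM in wild type and between 165 and 209 in Tet2 KO, again with none at 0. Tet2 itself, after 0, 3 and 6 h, had 23.7, 17.9 and 12.5 RPKM with the wild type label and 23.0, 11.2 and 10.1 with the Tet2 KO label, and the difference did not pass the test (log2 difference -0.32, SE 0.20, limma adjusted p = 0.593). Of 15 RNA m5C writers, readers and erasers, 9 were tested and none was called between the genotypes. Nsun2, which encodes the main mRNA writer, had wild type values of 75.8, 84.8 and 67.1 RPKM and Tet2 KO values of 88.6, 90.0 and 89.8 (log2 difference 0.24, SE 0.16, adjusted p = 0.621). Of the 9, 1 had a called slope over actinomycin D, where 8.03% of all loci did. It was Ythdf2, a reader protein that promotes RNA decay, with a slope of -0.29 log2 units per h (SE 0.04, adjusted p = 0.0103), and the call held in 3 of 6 fits without 1 library. None of the 318 positions lay in a gene of that list.

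Genes of the extracellular matrix, which fibroblasts express strongly, held 5 positions by the feeder marker list, in Loxl1, a lysyl oxidase (0.455 and 0.263), in Fbn1, the microfibril protein fibrillin (0.323 and 0.219, and 0.231 and 0.267), in Col5a1 (0.333 and 0.133) and in Col1a2. The 5 are 1.57% of the 318, where that list held 0.388% of all wild type positions. It held 2 of the positions from 0.2 to under 0.4 listed in both genotypes (0.469%) and 0 of those listed in Tet2 KO only. These counts are small, and no test was made. Further matrix genes among the hosts, chosen after their values were seen, were Col4a2, Ltbp4, Bgn, Col18a1 and Mmp14, a membrane-bound matrix protease. The 9 genes together held 13 of the 318 positions, a count that their choice fixes. After 0, 3 and 6 h their RPKM summed to 282, 394 and 295 in the wild type libraries and to 228, 294 and 298 in the Tet2 KO libraries, which is lower in Tet2 KO at 0 and 3 h and not at 6 h. All 9 had a log2 difference under 0, with a median of -0.35 (also 9 of 9 and -0.32 with quantile normalization), and none passed the test. The count of 9 of 9 may come from the choice of genes, made after the values were seen. Among matrix hosts outside the 9, Tnc was at 0.07 and Col16a1 at -0.43. Of the 13 fibroblast markers tested, 10 were under 0 and 3 over it, with a median of -0.11 and a range of -0.66 to 0.45, and 0 passed. The part of feeder RNA in the listing of these positions was not tested.

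RNA of the host genes was measured in separate libraries and was not used by the rule. A locus of a single symbol was matched for 249 positions, 237 loci in all, and 230 had a mean of at least 1 RPKM and were tested. After 0, 3 and 6 h the median host had 12.7, 12.5 and 8.20 RPKM in the wild type libraries and 11.9, 11.8 and 9.47 in the Tet2 KO libraries. At 0 h, hosts of positions listed in both genotypes had medians of 17.5 and 18.7 in wild type and Tet2 KO, hosts of Tet2 KO only positions 11.0 and 11.8, and all loci of a single symbol 5.31 and 5.15. Of the 237 hosts, 9 were under 1 RPKM in the Tet2 KO 0 h library, and 128 (54.0%) were lower in Tet2 KO than in wild type at 0 h. The share was 52.1% for hosts of positions listed in both genotypes, 47.3% for hosts of Tet2 KO only positions and 47.9% for all such loci. In genes that held no position of the Tet2 KO list, 128 host loci had medians of 13.2 RPKM in wild type and 12.6 in Tet2 KO at 0 h, and in genes that held one, 109 loci had 11.2 and 11.1. RPKM give no measure of the coverage in the bisulfite libraries, while 35 positions matched no locus, 28 matched one of several symbols and 6 had no host gene.

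Between the genotypes, no host RNA was called. Differences were fitted with limma on log2(RPKM + 1) with time as a block, and 0 of the 230 hosts passed at an adjusted p under 0.05, where 0.0759% of 11855 loci did, 0.00844% upwards and 0.0675% downwards. At an unadjusted p under 0.05 there were 16 (6.96%), against 10.8% of all loci. The median log2 difference (Tet2 KO minus wild type) was 0.02, beside 0.04 over all loci, 0.02 for hosts of positions listed in both genotypes and 0.08 for hosts of Tet2 KO only positions.

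The widest host differences were all short of the threshold. Mmp14 had 22.8, 36.8 and 26.2 RPKM after 0, 3 and 6 h in the wild type libraries and 12.6, 18.6 and 19.2 in the Tet2 KO libraries. Its log2 difference was -0.73 (SE 0.19, limma adjusted p = 0.333). Prkar2a had wild type values of 6.23, 11.7 and 8.36 RPKM and Tet2 KO values of 13.6, 14.5 and 14.2 (0.67, SE 0.22, adjusted p = 0.385). Rnf25 had 7.93, 3.75 and 2.06 against 14.4, 16.0 and 2.92, and the widest difference upwards (1.00, SE 0.32, adjusted p = 0.385). The widest downwards was that of the pseudogene Gm9625 (-0.93, SE 0.22, adjusted p = 0.309), which is uncertain where reads could be shared with a parent gene. The other named differences were -0.81 in Elk3, -0.62 in Il17rc, which turned to 0.18 without either 0 h library, -0.61 in Clasrp and -0.60 in Yy1 on the lower side, and 0.70 in Smarcd2, 0.59 in Pdcd7, 0.58 in Nop9 and 0.57 in Tnrc18 on the higher side. Leaving out 1 library moved several of these by over 1.5 times, with a range of -1.14 to -0.37 for Elk3, -1.06 to -0.19 for Yy1, 0.38 to 1.09 for Smarcd2, 0.57 to 1.32 for Rnf25, 0.38 to 0.81 for Nop9 and 0.34 to 0.82 for Tnrc18.

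**Figure D4:**
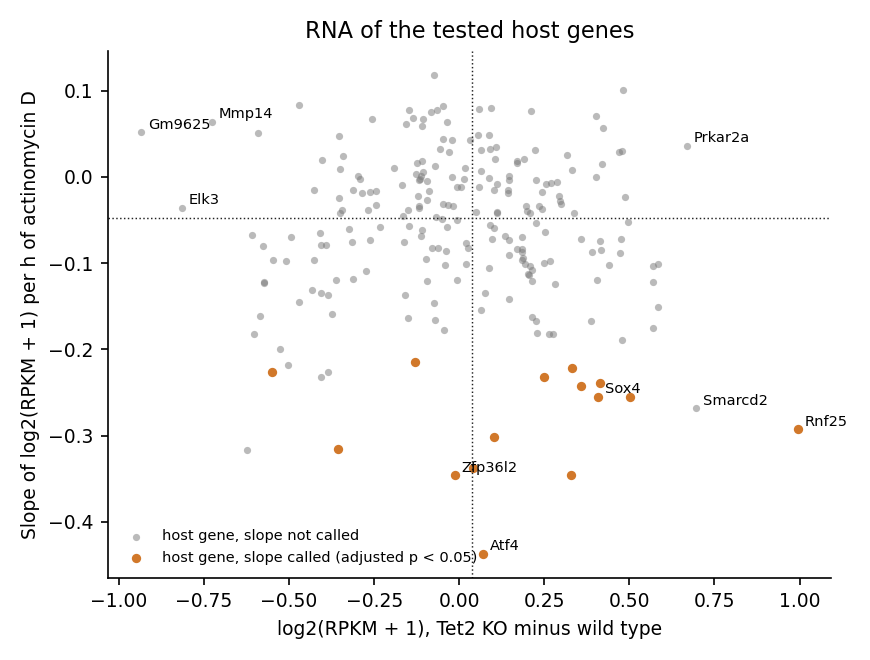
Each point is 1 of the 230 tested host genes, with its log2(RPKM + 1) difference, Tet2 KO minus wild type (x axis), and its slope of log2(RPKM + 1) per h of actinomycin D (y axis). Orange points are the 15 with a called slope, and dotted lines are the medians of all 11855 loci, 0.04 and -0.05. Called slopes lie on either side of the vertical line, and no difference between genotypes was called.

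Over actinomycin D, 15 of the 230 host RNAs fell relative to their libraries and 0 rose, which is 6.52%, where 8.03% of all loci passed, 7.91% by falling and 0.118% by rising. RPKM are relative within a library, so a slope is a change against the library as a whole, and not absolute decay. The median host slope was -0.05 log2 units per h, as it was over all loci. Atf4, the transcription factor of the amino acid and stress response, fell most. After 0, 3 and 6 h it had 97.2, 32.6 and 12.7 RPKM in the wild type libraries and 92.2, 31.0 and 16.5 in the Tet2 KO libraries, with a slope of -0.44 (SE 0.04, limma adjusted p = 0.00725). It held a position at chr15:80256378 with 0.4 and 0.156, and 2 positions of the Tet2 KO list.

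Among the other hosts that fell, Ing1 fell from 24.5 to 10.1 and 3.42 RPKM in wild type and from 17.4 to 10.6 and 5.39 in Tet2 KO (slope -0.34, SE 0.05, limma adjusted p = 0.0108). Zfp36l2, which binds AU-rich mRNA and promotes its decay, fell from 6.15 to 1.57 and 0.888 in wild type and from 7.24 to 1.34 and 0.754 in Tet2 KO (-0.35, SE 0.06, adjusted p = 0.0169). Sox4, a transcription factor of development, fell from 7.35 to 3.03 and 1.75 and from 9.97 to 3.93 and 3.00 (-0.25, SE 0.05, adjusted p = 0.0220). In these 4 genes the levels were ordered by time in both genotypes.

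The other 11 were Il17rd, an inhibitor of FGF signalling, with a slope of -0.32, Nrf1, a regulator of nuclear genes of mitochondria, with -0.30, Rnf25 with -0.29, Fam160b1 with -0.26, the ubiquitin ligase Rnf19b with -0.24, Usp1 with -0.24, Nudt4, a diphosphoinositol phosphatase, with -0.23, Slc16a3, a lactate transporter, with -0.23, the lipid phosphatase Mtmr4 with -0.22, Arid1a, a subunit of the BAF remodeller, with -0.21, and 4930453N24Rik with -0.35. Il17rc had a slope of -0.32 and did not pass (adjusted p = 0.0981). At the other end, Ccdc107 at 0.12, Eif5al3-ps at 0.10, Col4a2, Ankrd13b, Glmp and Rplp0 at 0.08 had the highest slopes, and none passed. Rplp0 had wild type values of 535, 771 and 702 RPKM and Tet2 KO values of 532, 786 and 780.

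The number of calls changed with each library left out, while the slopes of the 15 stayed below 0 in all 90 such fits, between -0.48 and -0.18. The 15 were chosen for falling in the same data, so this was in part set by the choice. Leaving out a 3 h library, the middle time, could not move a slope and changed only its p-value. Nrf1 alone moved by over 1.5 times, to -0.20. Without the wild type 6 h library 0 hosts passed (0.0% of all loci), without wild type 0 h 1 (0.951%) and without wild type 3 h 3 (2.0%). Without Tet2 KO 0 h 4 hosts passed (1.5% of all loci), without Tet2 KO 6 h 7 (6.24%) and without Tet2 KO 3 h 25 (12.5%). The share of all loci, 8.03% with all 6 libraries, thus fell and rose in the same runs. With quantile normalization, 2 of the 15 remained, Atf4 and 4930453N24Rik, and 0.962% of all loci passed.

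**Figure D5:**
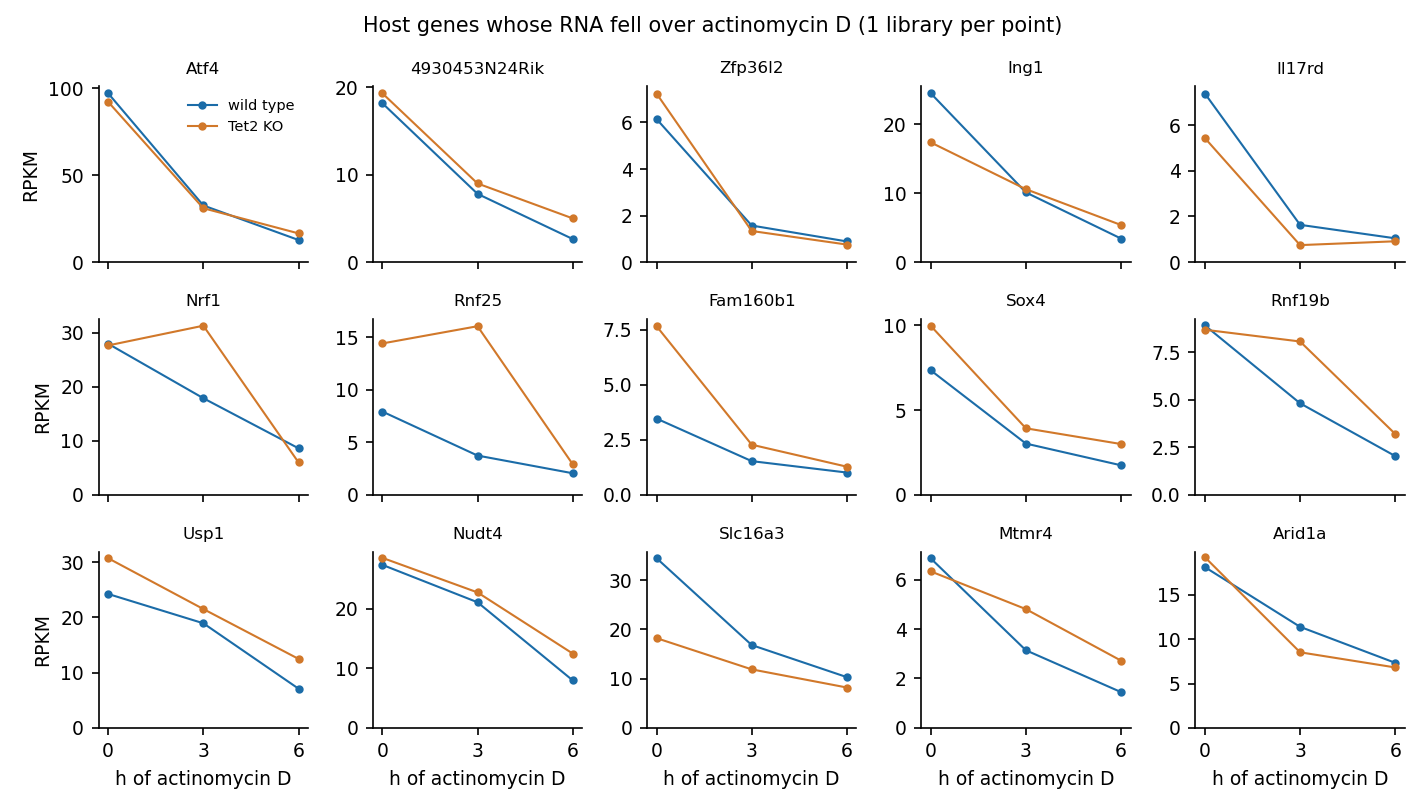
RPKM (y axis) of the 15 host genes whose RNA fell, at 0, 3 and 6 h of actinomycin D (x axis), in wild type (blue) and Tet2 KO (orange), with 1 library per point. Atf4 falls from 97.2 to 12.7 RPKM in wild type and from 92.2 to 16.5 in Tet2 KO, while Nrf1 and Rnf25 stand highest at 3 h in Tet2 KO.

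The slopes of host RNA were not shown to differ between the genotypes. In the interaction fit with limma, 0 of the 230 hosts passed, as 0.0% of all loci did, and 9 had an unadjusted p under 0.05 (3.91%), against 4.12% of all loci. The median difference (Tet2 KO minus wild type) was 0.04 log2 units per h, beside 0.02 over all loci. The widest differences were 0.51 per h in Hdgf (SE 0.15) and -0.46 in Sec63 (SE 0.14), and neither passed. Ltbp4, a matrix protein that binds latent TGF-beta and was chosen here after its values were seen, had wild type values of 33.9, 21.5 and 9.86 RPKM and Tet2 KO values of 10.4, 12.1 and 19.5, with a difference of 0.42 per h (SE 0.10, limma adjusted p = 0.9996).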

How the data were processed

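The deposited m5C levels are fractions per position and replicate, per the file headers, without coverage, so their depth is unknown. RNA values are the authors' RPKM, as the column headers name them, though that of wild type 0 h lacks a letter. Trimmomatic was named for the bisulfite samples and Bowtie2 and Cufflinks for the RNA libraries, with GRCm38 and mm10 as builds, per the submitters' processing notes. The sources used here do not give versions, site calling, strand use or the treatment of multiply mapped reads, and each could change a value. Of 18 samples, 10 were used, grouped by title. The 8 immunoprecipitation and input samples were not analysed here.

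Positions were placed in RefSeq genes (GRCm38.p6), with gene strands taken from the promoter windows, and a protein-coding gene before others. A host was matched to an RNA locus by symbol, or by a RefSeq synonym that is no other gene's symbol (2 positions). Loci of several symbols (28 positions) stayed out, and 35 positions matched no locus. R 4.3.3 with limma 3.58.1 fitted log2(RPKM + 1) of all 11855 loci with a mean of at least 1 RPKM, two-sided, with a mean trend and Benjamini-Hochberg adjustment. Such fold changes understate those of low loci. The genotype fit had 2 residual degrees of freedom, the slope fit 3 and the interaction 2. The code was tested on simulated data. Figures used matplotlib 3.10.9. A gene in a list was matched by symbol or symbol pattern. The members and lists were chosen with earlier results of these data known. Named positions were the 12 highest, the 6 with the widest replicate difference, those within 10 nt of a Tet2 KO position, those nearest the bounds and up to 4 per list. Named hosts were all calls and the 6 most extreme each way.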

Additional observations from a re-analysis of the deposited data

How the results depend on the processing

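The number of positions depended on the bounds. It was 107 with both wild type replicates from 0.2 to under 0.4, 112 with a lower bound of 0.25 and 1071 with one of 0.15. With 1 replicate left out it was between 350 and 498. It was 318 with strand ignored and 314 with Tet2 KO positions within 5 nt also taken as matches. The median difference between replicates was 0.068 with the bound of 0.25, 0.062 with 1 position per gene and 0.0703 on the arcsine square root scale. Called host slopes numbered 15, and 2 with quantile normalization, where 8.03% and 0.962% of all loci passed. With 1 library left out they numbered between 0 and 25, and between 0.0% and 12.5% of all loci passed. The count of called host differences between genotypes was 0 in each alternative run. That of called slope differences was 0 in all alternatives but 2, so that the range with 1 library left out was 0 to 3. There were 3 of 230 without Tet2 KO 3 h, where 1.5% of all loci passed, and 2 of 230 without Tet2 KO 6 h, where 2.2% did. Without Tet2 KO 0 h, 0 hosts and 2.46% of all loci passed. Over 12 genes named for their genotype difference, 139 of 141 comparisons kept direction and side of the threshold. None of the 12 was called with all libraries, so the side of the threshold says little. With time as a block, leaving out either library of a time gives the same difference, so these runs are not separate checks. Il17rc turned to 0.18 without the 0 h library of wild type or of Tet2 KO, with a range of -1.29 to 0.18 when 1 library was left out. Over 22 genes named for their slope, 153 of 235 comparisons kept direction and side of the threshold, 80 lost the call and 1 gained it. In those without a 3 h library the slope could not move, and only the side of the threshold could change. Glmp turned to -0.00923 without wild type 0 h, with a range of -0.00923 to 0.17. The cause was not tested. Loci of several symbols and placement by position alone were added after seeing the data and gave slope counts of 16 and 15. No paired analysis was possible because the positions have no level in Tet2 KO, and the RNA libraries, with 1 per genotype and time, carry no replicate numbers. The genotype fit matched RNA libraries by time, and gave 0 calls without that block too.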
